A study of Marchantia polymorpha and Klebsormidium nitens with 125 samples.

Results

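Klebsormidium nitens is a filamentous alga of the streptophytes, the green lineage that also gave rise to land plants. Its RNA was sequenced after growth on little nitrate, little phosphate or no sucrose and again after the missing nutrient was returned. The genes described here had more transcript than the control after phosphate starvation. After nitrate or sucrose starvation they lay within a set window around the control level. They were chosen from group means in CPM, the usual scaling of a gene's count by the total of its library. The ratio of a group to the control, with 1 CPM added to both means, had to be at least 2.5 in the phosphate-starved group and between 0.67 and 1.5 in the nitrate-starved and sucrose-starved groups, and the phosphate-starved mean had to reach 5 CPM. The rule kept 39 of 16122 genes. The levels in these 4 groups made the choice and are given as a description with no test. The resupplied libraries played no part in it, and tests were run among those alone.

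All libraries came from whole cultures of the strain NIES-2285. Cultures spent 7 days in full liquid Yamagami medium. Starvation lasted 5 days, in medium that held 1% of the potassium and sodium nitrate, 1% of the potassium phosphate, or 0% of the sucrose. The protocol describes the return to full medium after starvation for the liverwort of the same series only, and the labels list K. nitens groups resupplied with nitrate, phosphate or sucrose for 6, 24 or 72 h after each starvation. The control is labelled as untreated in full medium, and its age at harvest is not stated. There were 13 groups of 3 libraries, 39 in all, and the control has no library of a matched 6, 24 or 72 h. The labels do not say whether the 3 libraries of a group came from separate cultures, and the p-values given here then describe only how far these libraries spread, which may be technical.

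Phosphate is part of nucleic acids, of membrane phospholipids and of ATP. In flowering plants, cells short of phosphate make more phosphate transporters and secreted acid phosphatases and replace membrane phospholipids with lipids that hold sulfur or galactose. In the flowering plant Arabidopsis, MYB factors of the PHR family switch these genes on, and proteins with an SPX domain hold the factors back while phosphate is plentiful. No table used here pairs the identifiers of K. nitens with gene names or products (0 identifiers matched), so it is not known which of the 39 belong to these classes. The genes are therefore described by identifier and by what they did. KFL_004100020 and KFL_000450290, with the highest ratios in starvation, and KFL_001540040 and KFL_003840040, with the most negative changes between 6 and 72 h of phosphate resupply, are named by rule. The other genes singled out below were chosen after their values were seen.

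Library totals ran from 18750994 to 33047350 counts, and every one of the 39 genes had at least 426 counts over the 3 phosphate-starved libraries. The composition of the libraries differed between the groups. The 100 most abundant genes took 19.2% to 19.6% of a control library, 16.6% to 17.3% of a phosphate-starved library and 13.6% to 16.4% of a resupplied one. The median gene had a CPM ratio to control of 1.17 in the phosphate-starved group, 1.42 at 6 h of phosphate resupply and 1.48 at 72 h (log2 0.22, 0.50 and 0.57). With TMM scaling, which sets libraries to a common level for most genes, these medians were 1.03, 1.03 and 1.07. Ratios to the control or to the starved group below are in CPM unless TMM is named. Scores on the first principal component of the 500 most variable genes, which held 55.1% of their variance, were 7.8 to 21.9 in the resupplied libraries and -50.99 to -10.46 in the control and starved ones.

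In the phosphate-starved group the 39 genes had a median ratio to control of 3.07, with a range of 2.52 to 6.78. Together they made up 6799, 6951 and 5069 CPM in the 3 starved libraries, against 1793, 1673 and 1667 CPM in the controls. Their sum was 1648 CPM on average after nitrate starvation and 1729 CPM after sucrose starvation. All 3 starved libraries were above all 3 controls for each of the 39 genes, as the rule favours, while this held for 52.0% of all genes that reached 5 CPM in some group. On the TMM scale the median ratio was 2.80 and 31 of the 39 stayed at 2.5 or more. On that scale 5 of the 39 were under 0.67 in nitrate starvation and 3 in sucrose starvation. More transcript per cell and a larger share of cells that make a transcript cannot be told apart in whole cultures.

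The 39 were a small part of the genes that passed the phosphate threshold. In the phosphate-starved group 260 genes, or 1.61% of the table, had a ratio of at least 2.5 and at least 5 CPM. Of these, 165 also exceeded 1.5 in sucrose starvation and 103 in nitrate starvation. Another 23 were under 0.67 in sucrose starvation and 32 in nitrate starvation. These are CPM ratios, and no share of all genes is given for the 4 counts. The median gene had a CPM ratio to control of 1.36 in sucrose starvation and 1.14 in nitrate starvation (TMM 1.04 and 1.01). Just inside the threshold stood ratios of 2.515, 2.550 and 2.552, and just outside it, with the other conditions met, 2.499, 2.484 and 2.483. The lowest starved means inside were 5.128 and 5.186 CPM, and the nearest outside were 4.682 and 4.030 CPM. Over the 39, ratios ran from 0.675 to 1.493 in nitrate starvation and from 0.707 to 1.492 in sucrose starvation, close to the window limits. The highest nitrate ratio was that of KFL_005440040, at 135, 149 and 125 CPM in nitrate starvation and 102, 87.6 and 83.8 CPM in the controls. KFL_005700010 had a nitrate ratio of 1.46.

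KFL_000450290 had the second highest ratio in phosphate starvation, 6.33. Its level was 155, 139 and 130 CPM in the controls and 1061, 1076 and 560 CPM in the phosphate-starved libraries. Nitrate starvation gave 152, 141 and 79.4 CPM and sucrose starvation 151, 158 and 144 CPM. The phosphate-starved libraries stood far above all other libraries of the gene, including every resupplied one. KFL_004100020 had the highest ratio, 6.78, from much lower values. It stood at 0.635, 0.444 and 0.599 CPM in the controls and at 7.29, 4.94 and 16.5 CPM after phosphate starvation.

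The 3 phosphate-starved libraries were not alike. Library 2 was the lowest of its group for 17 of the 39 genes and the highest for 11. Library 3 was the lowest for 16 and the highest for 19. It held 560 CPM of KFL_000450290 where libraries 1 and 2 held 1061 and 1076 CPM, and the same library held the most of KFL_004100020. KFL_001540040 stood at 2.57, 1.86 and 14.3 CPM in starved libraries 1, 2 and 3, so its place in the set rested on library 3. The starved coefficient of variation ran from 1.48% to 112% over the 39, with a median of 28.7%, and 7 genes exceeded 50%. A ratio of at least 2.5 was met in each single starved library by 19 genes, and without library 3 by 32. Without it the ratio of KFL_001540040 was 1.70 and that of KFL_001640210 was 2.24. The rule chose 16 of the 39 whichever single control or starved library was left out.

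**Figure D1:**
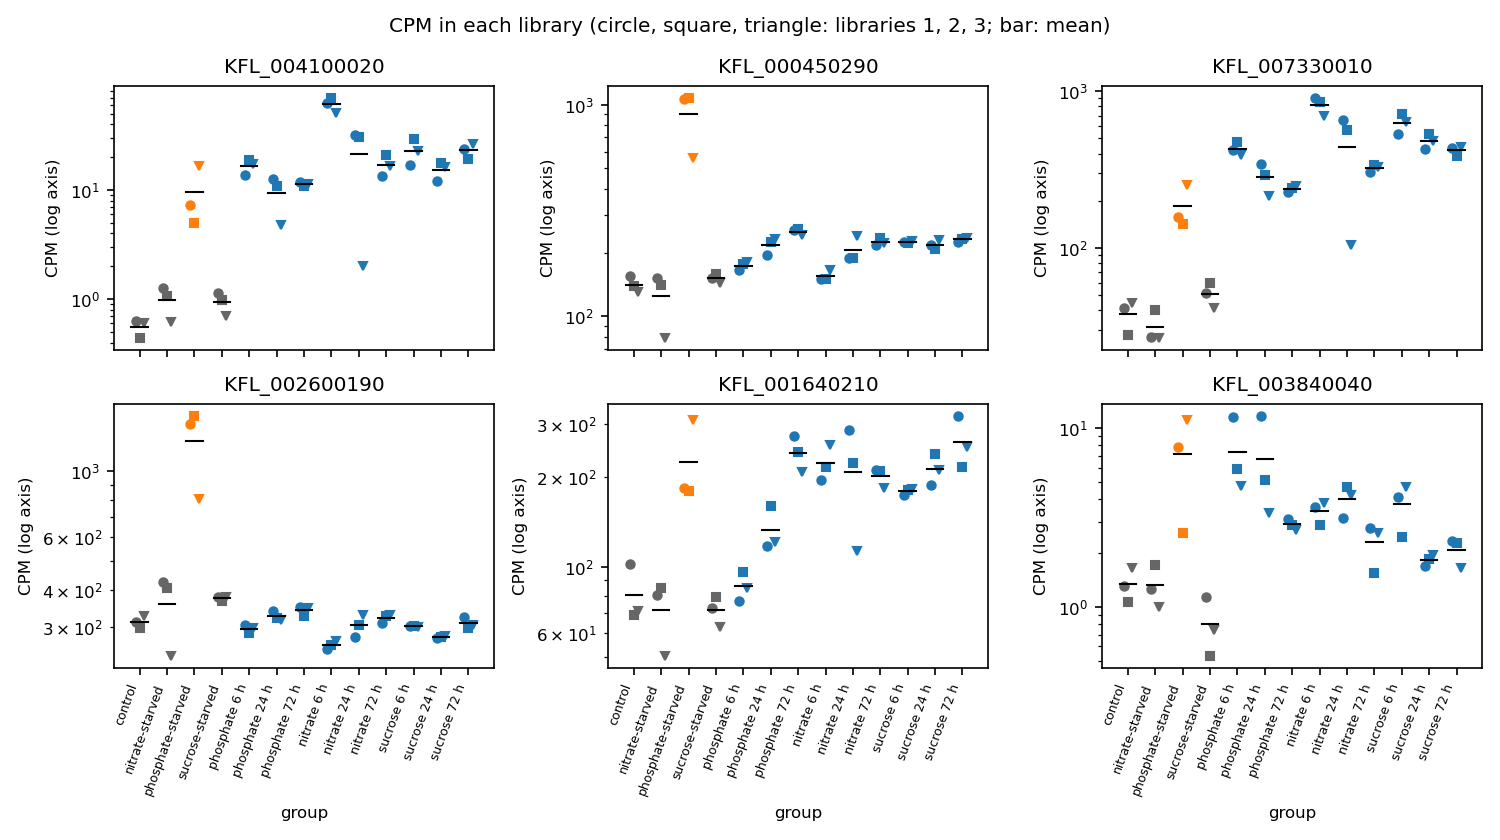
CPM on a log axis in each of the 39 libraries for 6 of the genes, by group; circles, squares and triangles are libraries 1, 2 and 3 and bars are means, with phosphate-starved libraries in orange and resupplied ones in blue. Starved library 3 lies below libraries 1 and 2 for KFL_000450290 and KFL_002600190 and above them for KFL_004100020, KFL_007330010, KFL_001640210 and KFL_003840040.

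Some of the 39 had identifiers close to each other in number, in 3 pairs that held 6 of the genes. Their positions in the genome were not used here. KFL_002600180 and KFL_002600190 were consecutive and had starved ratios of 4.14 and 4.02. KFL_002600190 stood at 312, 297 and 327 CPM in the controls and at 1434, 1532 and 809 CPM after phosphate starvation. KFL_002600180 stood at 30.1, 30.8 and 35.1 CPM in the controls and at 145, 167 and 94.8 CPM after starvation. Starved library 3 was the lowest in both genes of this pair. The identifier listed before the pair had a ratio of 1.69 and the one after it 2.21.

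The second pair, KFL_004040090 and KFL_004040100, had ratios of 5.25 and 4.82. KFL_004040090 stood at 28.4, 28.0 and 21.5 CPM in the controls and at 156, 159 and 106 CPM after phosphate starvation. KFL_004040100 stood at 0.454, 0.977 and 0.507 CPM in the controls and at 3.63, 2.72 and 14.5 CPM after starvation. Here starved library 3 was the lowest in one gene of the pair and the highest in the other. The identifier before the pair, KFL_004040080, had a ratio of 0.593. The last pair was KFL_001640210 and KFL_001640230, with ratios of 2.76 and 2.85. The identifier between them, KFL_001640220, had a ratio of 3.61 and was not kept by the rule.

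When phosphate was returned, the 39 genes did not move together. At 6 h the median ratio to control was 2.17, with a range of 0.418 to 11.3, and on the TMM scale it was 1.63. By CPM, 17 genes were still at 2.5 times the control or more, 11 were between 0.67 and 1.5, and 1 was below 0.67. Of all genes at 5 CPM or more in some group, 17.3% had a ratio of at least 2.5 at this time and 42.4% were between 0.67 and 1.5. On the TMM scale 15 of the 39 were at 2.5 or more, where 8.01% of all genes were. By TMM 15 were between 0.67 and 1.5 and 3 were below, with no share of all genes given for these counts. The 3 phosphate-resupplied libraries were all below the 3 starved ones for 18 genes at 6 h, against 17.8% of all genes. This held for 16 genes at 24 h and for 16 at 72 h, against 13.1% and 15.1%.

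Set against the starved group, 20 of the 39 were under 0.67 of the starved level at 6 h, 8 were within 0.67 to 1.5 of it and 11 were more than 1.5 times higher still. Of all genes, 9.0% were under 0.67, 62.1% within and 28.9% above. On the TMM scale the counts were 22, 9 and 8, where 13.5% of all genes were above 1.5 times the starved level. No share of all genes is given for the 22 and the 9. Without starved library 3 the CPM counts were 17, 11 and 11, for which no share of all genes is given. The starved libraries chose the members for high values, so a lower level in other libraries is described here with no test.

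The summed level of the 39 was 2500, 2577 and 2585 CPM in the libraries at 6 h of phosphate resupply. It was 2629 to 3066 CPM at 24 h and 3112 to 3291 CPM at 72 h. By CPM none of these 9 libraries came down to the control sum, which was at most 1793 CPM, or up to the lowest starved sum of 5069 CPM. These sums carry the shift in composition given above, with the median gene at 1.42 times the control at 6 h and 1.48 at 72 h. No sum is given on the TMM scale, so the distance to the control sum on that scale is not known here. The median ratio to control was 2.57 at 24 h and 2.88 at 72 h (TMM 1.97 and 2.13). The number between 0.67 and 1.5 was 7 at 24 h and 5 at 72 h, against 46.4% and 40.9% of all genes. On the TMM scale it was 11 and 12, with no share of all genes given on that scale.

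Part of the 39 also reached 2.5 times the control level after nitrate or sucrose was returned. At 6 h, 17 of the 39 had at least 2.5 times the control level with nitrate and 14 with sucrose, where 17.4% and 17.6% of all genes did. At 24 h it was 16 with each, against 14.8% and 14.5%, and 22 with phosphate, against 13.1%. At 72 h it was 21 with nitrate, 23 with sucrose and 24 with phosphate, against 13.4%, 14.3% and 15.9%. On the TMM scale the counts with nitrate, sucrose and phosphate were 15, 12 and 15 at 6 h, 13, 11 and 16 at 24 h, and 14, 14 and 12 at 72 h. On that scale 5.51% to 9.14% of all genes reached 2.5 in these 9 groups. All of these ratios share the 3 control libraries, which the rule also used, so they are set side by side with no test. The highest mean of the 13 groups lay in phosphate starvation for 17 genes, as the rule favours, and at 6 h of nitrate resupply for 14. These are CPM means, which carry the shift in composition given above, and no share of all genes is given for them.

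**Figure D2:**
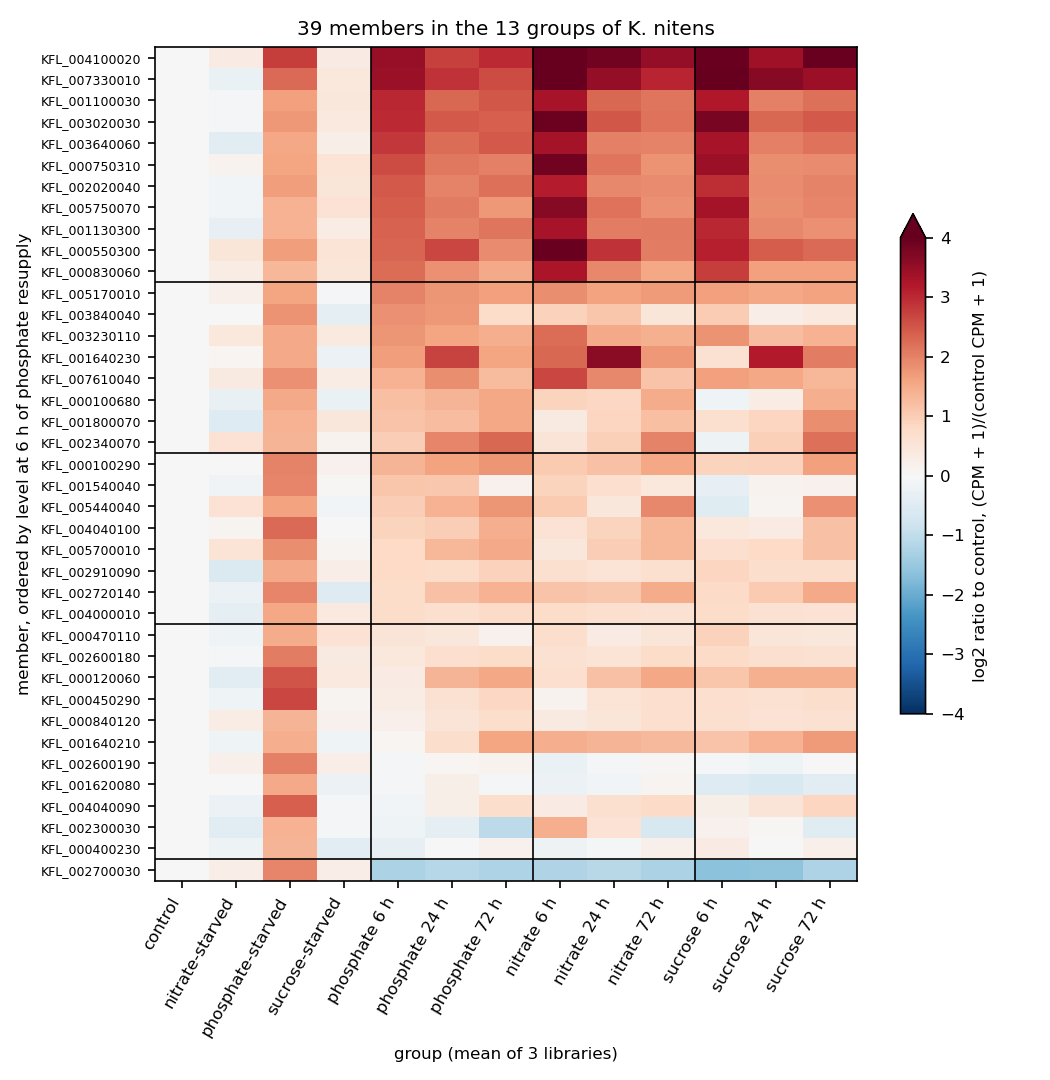
Log2 ratio to control in CPM for the 39 genes (rows) in the 13 groups (columns), each from the means of 3 libraries; horizontal lines separate the genes by their level at 6 h of phosphate resupply and colours saturate at 4. The 11 genes at the top have their highest value at 6 h of nitrate resupply, and the gene in the bottom row is below control in every resupplied group.

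The genes were sorted by their level at 6 h of phosphate resupply, after that level was seen, to describe the paths they took. The first set held the 11 genes above 1.5 times the starved level, at 4.75 to 11.3 times the control. They were higher again in the other resupplies at the same hour, at 8.74 to 39.8 times the control with nitrate and 6.87 to 16.2 times with sucrose. By TMM the ranges were 3.57 to 9.56 with phosphate, 7.08 to 33.8 with nitrate and 5.04 to 12.7 with sucrose. All 11 had their highest mean of the 13 groups at 6 h of nitrate resupply. KFL_004100020 was 13.7, 18.8 and 17.3 CPM at 6 h of phosphate resupply, 62.5, 69.8 and 50.9 CPM at 6 h of nitrate resupply and 16.9, 29.0 and 22.9 CPM at 6 h of sucrose resupply. The nitrate libraries were above all others at that hour, and those of phosphate and sucrose overlapped.

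KFL_007330010 took the same path. It stood at 41.3, 27.9 and 44.8 CPM in the controls and at 159, 142 and 253 CPM in phosphate starvation. At 6 h it reached 420, 475 and 394 CPM with phosphate, 909, 853 and 696 CPM with nitrate and 532, 719 and 638 CPM with sucrose. Every one of these resupplied libraries was above every starved one, and the phosphate libraries were the lowest at that hour. By 72 h of phosphate resupply it stood at 227, 243 and 248 CPM.

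A further 11 genes were at 0.805 to 1.44 times the control at 6 h, and 9 of them had their highest mean in phosphate starvation. By TMM they were at 0.579 to 1.06 times the control, 2 of them below 0.67. KFL_000450290 belonged here, at 165, 176 and 180 CPM at 6 h, 194, 225 and 231 CPM at 24 h and 255, 257 and 243 CPM at 72 h. Its ratio to control was 1.23 at 6 h and 1.77 at 72 h, or 0.884 and 1.27 on the TMM scale. KFL_002600190 was at 305, 287 and 297 CPM at 6 h and at 350, 327 and 348 CPM at 72 h, beside its control values of 312, 297 and 327 CPM. On the TMM scale its ratio to control was 0.683 at 6 h and 0.785 at 72 h. Its partner KFL_002600180 was at 42.4, 45.1 and 42.2 CPM at 6 h, above its controls by CPM, with a TMM ratio of 0.972. KFL_004040090 was at 23.0, 26.8 and 22.6 CPM at 6 h, within the spread of its controls by CPM, with a TMM ratio of 0.677.

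Between these sets, 8 genes were near the starved level at 6 h, and 8 lay under 0.67 of it and above 1.5 times the control. KFL_003840040 was in the first of these, at 1.30, 1.07 and 1.66 CPM in the controls, 7.82, 2.58 and 11.1 CPM in starvation and 11.5, 5.90 and 4.72 CPM at 6 h. KFL_001540040 was in the second, at 3.93, 2.44 and 2.92 CPM at 6 h. Without starved library 3 its level at 6 h was 1.27 times the starved one instead of 0.565. KFL_002700030 stood apart from the rest. It was at 3.36, 3.33 and 2.53 CPM in the controls and 10.7, 12.7 and 21.4 CPM in phosphate starvation, and then at 0.952, 0.394 and 0.759 CPM at 6 h of phosphate resupply. Its group means stayed between 0.312 and 0.897 CPM in all 9 resupplied groups, below the control on both scales.

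**Figure D3:**
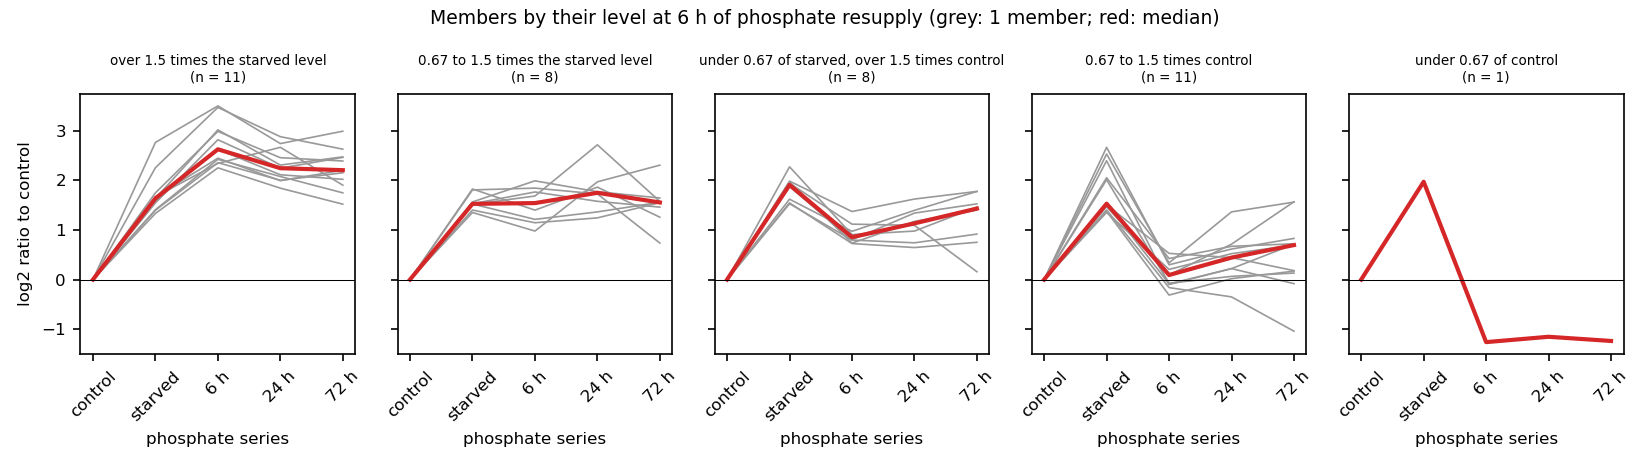
Log2 ratio to control in CPM (vertical axis) in the control, phosphate-starved and phosphate-resupplied groups for the 39 genes, in 5 panels by level at 6 h of resupply; grey lines are genes (mean of 3 libraries) and the red line is the median. The 11 genes of the first panel go above their starved level at 6 h, the 11 of the fourth are near control at 6 h, and 1 gene is below control.

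The first test asked whether the genes stood at another level after phosphate was returned than after nitrate or sucrose was returned, at the same hour. At 6 h, 16 of the 39 were lower with phosphate than with the mean of the other resupplies and 8 were higher (edgeR's quasi-likelihood test, Benjamini-Hochberg adjusted p under 0.05 over 12176 genes). Over all genes tested, 15.6% were lower and 14.4% were higher. The median log2 fold change was -0.25 over the 39, from -1.23 to 1.44, and -0.01 over all genes. The 16 lower genes had changes of -1.23 to -0.29 and the 8 higher ones of 0.27 to 1.44.

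The lower genes came mostly from 2 of the sets above. They included 9 of the 11 that stood above the starved level at 6 h and 6 of the 11 that were near control by CPM, while the higher ones were 4 of the 8 near the starved level and 4 of the 8 below it. These sets were made from the same phosphate libraries, so the split is a description. Against nitrate alone 16 were lower and 4 higher, where 13.2% and 10.9% of all genes were. Against sucrose alone 10 were lower and 7 higher, where 13.5% and 12.6% of all genes were. The 4 higher than nitrate are a share of the 39 close to that of all genes. Of the members, 7 were lower than both and 2 were higher than both, for which no share of all genes is given. Without library 1 of the phosphate group at 6 h the number of higher genes was 4 (10.6% of all genes), and without library 3 it was 2 (9.7%).

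KFL_001640210 had one of the most negative changes at 6 h. It stood at 102, 69.0 and 70.9 CPM in the controls and at 184, 180 and 310 CPM after phosphate starvation. At 6 h it was at 76.7, 96.2 and 84.7 CPM with phosphate, 195, 215 and 256 CPM with nitrate and 173, 181 and 182 CPM with sucrose. The phosphate libraries overlapped the controls by CPM, with a TMM ratio of 0.767, and lay below all libraries of the other resupplies. The log2 fold change was -1.20 ± 0.22 (SE), with an edgeR adjusted p of 0.000108, and each leave-one-out fit kept the call. KFL_004100020 was lower by -1.16 ± 0.41 (edgeR adjusted p 0.0326). Its call was lost in 6 of 9 fits that left out 1 library, and against sucrose alone the change was -0.433 and was not called. KFL_007330010 had a change of -0.73 ± 0.30, with an edgeR adjusted p of 0.0601. It was called against nitrate alone, at -0.943 (edgeR adjusted p 0.0379), and with only the groups compared in the fit, at -0.724 (edgeR adjusted p 0.000306). KFL_000450290 was at 150, 149 and 166 CPM with nitrate and 223, 222 and 227 CPM with sucrose, and its change was -0.09 ± 0.14 (edgeR adjusted p 0.68). Its phosphate libraries lay between those of nitrate and sucrose, apart from an overlap with nitrate.

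KFL_001540040 was higher with phosphate at 6 h by 1.44 ± 0.48 (edgeR adjusted p 0.0226). Its libraries were at 3.07, 1.72 and 2.76 CPM with nitrate and 0.433, 0.503 and 0.623 CPM with sucrose. The phosphate libraries overlapped those of nitrate and not those of sucrose, and against nitrate alone the change was 0.28 and was not called. KFL_003840040 was higher by 1.04 ± 0.33 (edgeR adjusted p 0.0160). Without phosphate library 1, which held 11.5 CPM, the change was 0.57 with an edgeR adjusted p of 0.275, and against sucrose alone it was not called either. KFL_005440040 was higher by 0.72 ± 0.19 (edgeR adjusted p 0.00422). It was at 174, 142 and 223 CPM with phosphate, 160, 157 and 247 CPM with nitrate and 64.5, 69.8 and 59.3 CPM with sucrose. Only the sucrose libraries stood apart, and against nitrate alone its change was -0.069, with an edgeR adjusted p of 0.857. Without phosphate library 3 its call was lost. KFL_005700010 was higher by 0.27 ± 0.09 (edgeR adjusted p 0.0226), with 17.5, 15.9 and 18.6 CPM under phosphate, and the call was lost against sucrose alone and in 4 of 9 fits that left out 1 library.

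**Figure D4:**
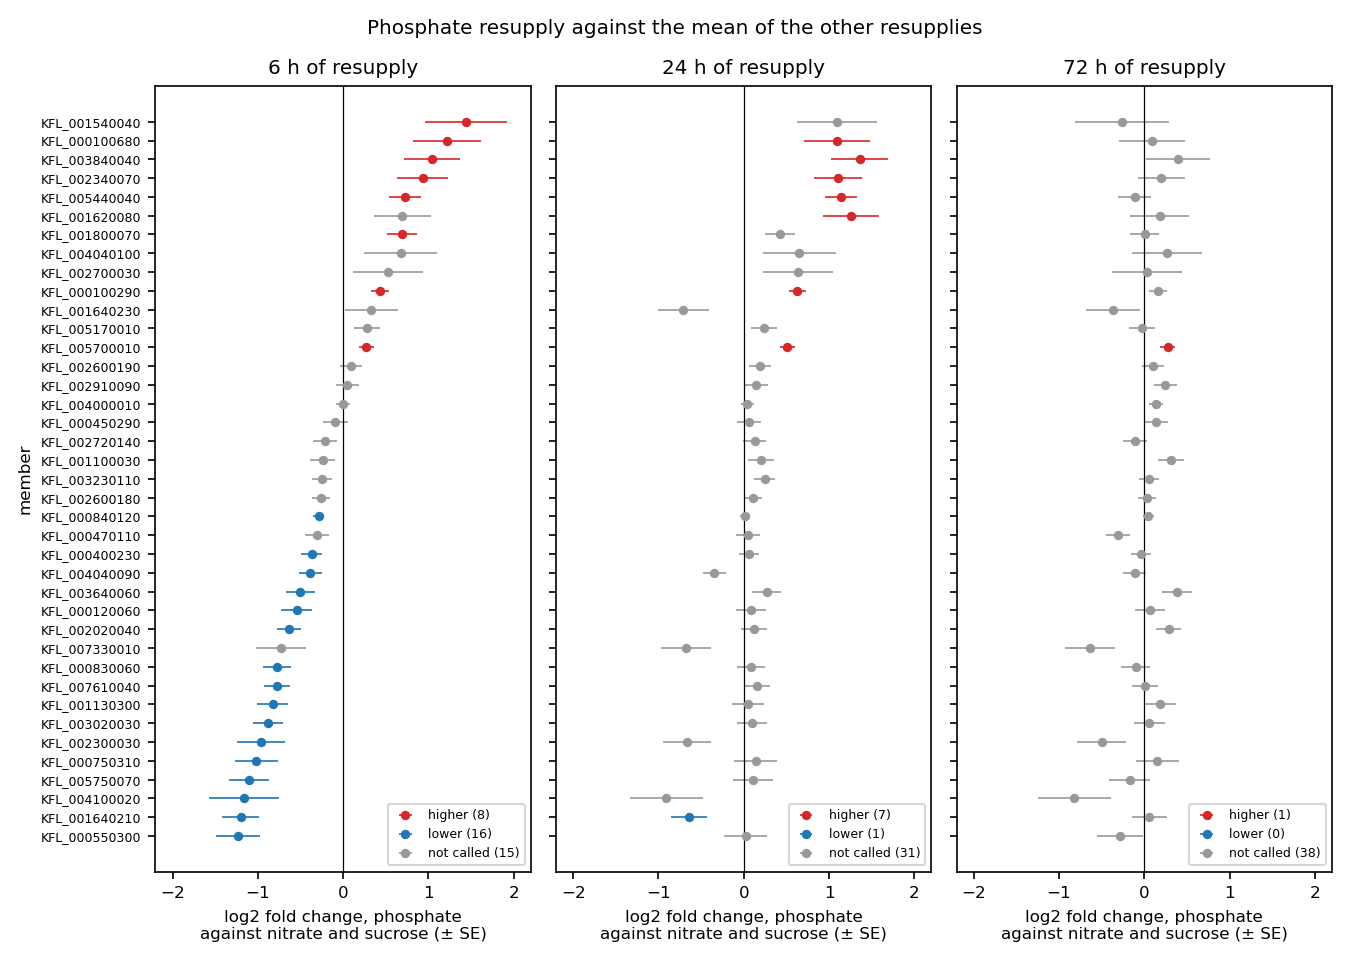
Log2 fold change ± SE of phosphate resupply against the mean of nitrate and sucrose resupply for the 39 genes at 6, 24 and 72 h, in the order of the 6 h values; red and blue mark genes called higher and lower. The calls number 8 higher and 16 lower at 6 h, 7 and 1 at 24 h, and 1 and 0 at 72 h.

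At 24 h, 7 of the 39 were higher with phosphate and 1 was lower, against 11.7% and 8.33% of all genes tested. The median log2 fold change was 0.13. Of the 7, 6 had also been higher at 6 h, and the lower gene, KFL_001640210, had been lower then too. KFL_005440040 stood at 376, 181 and 167 CPM with phosphate, at 124, 134 and 119 CPM with nitrate and at 95.8, 98.1 and 103 CPM with sucrose. All phosphate libraries were above all others, and library 1 stood apart among them. Its change was 1.14 ± 0.19 (edgeR adjusted p 6.12e-05), and without phosphate library 1 it was 0.66 (edgeR adjusted p 0.00621). KFL_003840040 had a change of 1.36 ± 0.34 (edgeR adjusted p 0.00441). Without phosphate library 1, at 11.7 CPM beside 5.15 and 3.34 CPM, it was 0.67 with an edgeR adjusted p of 0.193, and against nitrate alone it was 0.80 and not called. KFL_001640210 had 117, 159 and 121 CPM with phosphate, and its change was -0.64 ± 0.21 (edgeR adjusted p 0.0302). It was not called against nitrate or sucrose alone, or in 5 of the 9 fits that left out 1 library.

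At 24 h, library 3 of the nitrate group and library 3 of the phosphate group were each the lowest of their group for 26 of the 39 genes. The nitrate library held 2.00 CPM of KFL_004100020 beside 31.7 and 30.7 CPM, and 104 CPM of KFL_007330010 beside 657 and 566 CPM. Without this nitrate library 6 genes were lower with phosphate at 24 h in place of 1, where 12.6% of all genes were. Without library 3 of the phosphate group 9 were higher and 0 lower, where 7.85% and 5.25% of all genes were. Without library 1 of the phosphate group the number of higher genes was 4, where 11.7% of all genes were.

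At 72 h, 1 gene was higher with phosphate and 0 were lower, against 13% and 10.6% of all genes tested, by edgeR. DESeq2 also called 1 and 0, against 10.7% and 12.3% of all genes. By edgeR 5 of the 39 in either direction had an unadjusted p under 0.05, with no share of all genes given. The 1 gene was KFL_005700010, at 31.3, 28.5 and 27.7 CPM with phosphate, 24.7, 27.1 and 23.4 CPM with nitrate and 23.0, 20.5 and 24.8 CPM with sucrose. All phosphate libraries were the highest at that hour. Its change was 0.28 ± 0.09 (edgeR adjusted p 0.0222), and it was the only one of the 39 called at all 3 hours. At 72 h the call was lost against nitrate alone and in 3 of 9 fits that left out 1 library. Over the 3 hours 14 of the 39 genes were called at no hour, and no share of all genes is given for this count. Fitting the groups at 72 h alone gave 3 higher and 4 lower, where 17.5% and 18.5% of all genes were in that fit.

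The second test followed the genes through phosphate resupply itself. From 6 to 24 h, 10 of the 39 rose and 3 fell, against 17.9% and 14.5% of all genes tested. From 6 to 72 h, 12 rose and 8 fell, against 24.7% and 22.9%. Of the 10 that rose by 24 h, 8 were also higher at 72 h than at 6 h. The genes that were near control by CPM at 6 h gave 7 of the 12 rises to 72 h and 1 of the 8 falls. Those that stood above the starved level gave 0 rises and 5 falls. All these sets share the 6 h libraries with the test, so the split is a description.

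KFL_001640210 rose furthest from 6 to 72 h, from 76.7, 96.2 and 84.7 to 273, 241 and 207 CPM, by 1.48 ± 0.24 (edgeR adjusted p 1.55e-05). At 72 h its libraries were above all controls and overlapped those of phosphate starvation. KFL_004040090 rose to 45.5, 42.5 and 41.4 CPM, by 0.83 ± 0.16 (edgeR adjusted p 8.28e-05), and stayed below its starved libraries. KFL_000450290 rose by 0.53 ± 0.17 (edgeR adjusted p 0.00940), and KFL_002600180 by 0.30 ± 0.12 (edgeR adjusted p 0.0453), to 60.2, 47.0 and 52.8 CPM. The last call was lost with DESeq2 and in 5 of 6 fits that left out 1 library. For its neighbour KFL_002600190 the change was 0.20 ± 0.15, with an edgeR adjusted p of 0.260.

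KFL_001540040 fell by -1.48 ± 0.58 from 6 to 72 h (edgeR adjusted p 0.0367), to 1.29, 1.02 and 1.02 CPM. This call was lost in 5 of 6 fits that left out 1 library. KFL_003840040 fell by -1.35 ± 0.40 (edgeR adjusted p 0.00703), to 3.12, 2.87 and 2.7 CPM, and without library 1 at 6 h its change was -0.88 with an edgeR adjusted p of 0.0967. At 72 h the libraries of KFL_003840040 were above its controls by CPM, and those of KFL_001540040 overlapped them. KFL_007330010 fell by -0.85 ± 0.33 (edgeR adjusted p 0.0372), a call lost in 5 of 6 such fits. The number of falling genes was 4 without library 1 at 6 h or library 1 at 72 h, and 3 without library 2 at 72 h, where 18.9% to 19.2% of all genes fell. From 6 to 24 h the number of rising genes was 6 without library 1 at 6 h and 4 without library 2 at 6 h, where 15.2% and 14.2% of all genes rose.

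The third test compared the change from 6 to 72 h between resupplies. It was more positive with phosphate than with the other nutrients for 8 of the 39 and more negative for 1, against 7.42% and 6.79% of all genes tested. The median difference was 0.22 over the 39 and 0.02 over all genes. All 8 had been lower with phosphate at 6 h, and none of the 8 was called by edgeR at 72 h. Of these 8, 5 came from the set above the starved level at 6 h. This test shares its 6 h libraries with the 6 h comparison and with the sets, so these overlaps are a description. KFL_001640210 had the highest difference, 1.26 ± 0.29 (edgeR adjusted p 0.00347). With nitrate it went from 195, 215 and 256 to 210, 209 and 183 CPM, with sucrose from 173, 181 and 182 to 320, 215 and 250 CPM, and with phosphate it rose as above. Against sucrose alone the difference was 0.88 and not called. KFL_005440040 was the 1 with a more negative change, -0.83 ± 0.27 (edgeR adjusted p 0.0364), a call lost against nitrate alone and in 11 of 18 fits that left out 1 library. Its sucrose libraries went from 64.5, 69.8 and 59.3 to 344, 293 and 350 CPM, and its phosphate libraries from 174, 142 and 223 to 355, 287 and 301 CPM.

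The same rule was applied to the other starvations, and the sets it found are given side by side without a test. For nitrate starvation it kept 11 K. nitens genes, whose median ratio to control was 3.15 when starved and 1.31, 1.51 and 1.39 at 6, 24 and 72 h of nitrate resupply. For sucrose starvation it kept 46, with medians of 2.82 when starved and 2.65, 2.18 and 1.73 on resupply. The medians of the 39 phosphate genes were 3.07, 2.17, 2.57 and 2.88 in the same order. By TMM the medians were 2.88, 1.03, 1.11 and 1.05 for the nitrate genes, 2.21, 1.91, 1.65 and 1.30 for the sucrose genes and 2.80, 1.63, 1.97 and 2.13 for the phosphate genes. At 6 h, 11 of the 39 were above 1.5 times their starved level, a share at the 28.9% of all genes. The counts were 0 of the 11 nitrate genes, where 35.5% of all genes were above, and 3 of the 46 sucrose genes, where 18.8% were. By TMM the counts were 8 of the 39, 0 of the 11 and 3 of the 46, where 13.5%, 25.2% and 15.4% of all genes were above. In the liverwort Marchantia polymorpha of the same series, strain Tak-1, the rule kept 10 of 19355 genes. Their median ratio in CPM was 7.51 in phosphate starvation and 1.40, 1.19 and 1.07 on resupply, and by 72 h all 10 were between 0.67 and 1.5. The numbers of genes are small, and CPM ratios of resupplied K. nitens libraries carry the shift in composition given above.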

How the data were processed

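The K. nitens time course holds whole-number counts per gene and library, as deposited by the authors. The submitters' processing notes name STAR 2.7, an aligner, and DESeq2. Which build, annotation and counter were used, and whether strand was used in counting, is not given in the sources used here, and it is unknown how reads of near-identical or overlapping genes were split. Libraries were directional and selected for polyadenylated RNA, per the labels' protocols. A total of 74 rRNA and tRNA genes took at most 0.0395% of a library. All columns were matched to groups; 24 matched a group and no single sample, so libraries are numbered as the columns are. No 2 libraries held identical counts (0 pairs). The liverwort time course, also deposited as counts by the authors, was used for the side-by-side values alone.

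CPM, means and ratios were computed with Python 3.11.15. Tests used edgeR 4.0.16 (limma 3.58.1, R 4.3.3) with TMM scaling, filterByExpr, 1 fit over 39 libraries and 13 groups, and two-sided quasi-likelihood F-tests, with Benjamini-Hochberg adjustment over 12176 genes. SE is the fold change divided by the square root of F. All 39 genes passed the filter. The calling step was tested on simulated data. Alternatives were DESeq2 1.42.0, no filter, only the groups compared, 1 other nutrient alone, each library left out, and other settings of the selection. Genes were named by rule as the 2 with the highest starved ratio and the 2 with the lowest change among those called between 72 and 6 h. The members, the sets and the named genes were chosen with earlier results of these data known. A word list for phosphate genes matched no identifier, since none has a name, and sequences are not shown. The labels give no batch.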

Additional observations from a re-analysis of the deposited data

Results flagged for a closer look

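The change from 6 to 72 h of resupply differed between phosphate and the other nutrients for some of the 39 genes, by edgeR's test of the difference itself. The change was more positive with phosphate for 8 genes and more negative for 1, where 7.42% and 6.79% of all genes tested were, and the 1 of 39 is a smaller share than that of all genes. For KFL_001640210 the difference was 1.26 on the log2 scale and its call was kept whichever library was left out. Against sucrose alone the difference for KFL_001640210 was 0.88 and was not called. For KFL_005440040 the difference from the other nutrients together was -0.83, and the call was lost in 11 of 18 fits that left out 1 library. Against nitrate alone the difference for KFL_005440040 was -0.07.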

How the results depend on the processing

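The number of genes chosen was 39; it was 113 at a starved ratio of 2, 21 at a ratio of 3, 103 with a window of 0.5 to 2, and 35 to 52 with 1 control or starved library left out. With a pseudocount of 0.5 it was 41, 34 of them shared, and with TMM scaling 42, 26 of them shared. Against nitrate alone, 4 genes were higher at 6 h, 4 at 24 h and 0 at 72 h (10.9%, 9.99% and 9.44% of all genes), and 0 had a more negative change from 6 to 72 h (4.04%). Against sucrose alone, 10 were lower at 6 h and 0 at 24 h (13.5% and 7.07%), and the change was more positive for 5 and more negative for 4 (6.59% and 7.3%). Fitting only the groups compared gave 4 higher at 24 h (2.9%), 3 higher and 4 lower at 72 h (17.5% and 18.5%), 1 falling from 6 to 24 h (7.86%), 13 falling from 6 to 72 h (24.8%), and a more positive change for 17 and a more negative one for 4 (12.6% and 13.3%); the cause was not tested. DESeq2 gave a more negative change for 2 (8.6%). With 1 library left out, 2 to 8 were higher and 12 to 15 lower at 6 h. Of all genes, 9.7% to 14% and 10.8% to 15.6% were. At 24 h the counts were 4 to 9 and 0 to 6 (7.85% to 16.1% and 5.25% to 12.6%). At 72 h they were 0 to 1 and 0 to 0 (7.78% to 12.1% and 6.44% to 9.98%). To 24 h, 4 to 10 rose (12.2% to 18.4%) and 1 to 3 fell (at least 8.38%). To 72 h, 11 to 12 rose (21.2% to 22.4%) and 3 to 9 fell (18.9% to 20.8%). The change was more positive for 6 to 10 (5.2% to 7.05%) and more negative for 0 to 2 (5.23% to 6.52%). The reversed value was KFL_005440040 at 6 h, -0.069 against nitrate alone; the cause was not tested. The other 38 counts under other settings stayed within 1.5 times. No paired analysis was possible because 24 of the deposited columns, among them all phosphate and nitrate groups, carry no replicate number that belongs to one sample. Levels of a few CPM, as for KFL_002700030 and KFL_001540040, rest on few counts per library.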
